A study of Mus musculus with 2116 samples.

Results

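Nuclear genes of oxidative phosphorylation were followed in single CD4 T cells of the mouse spleen. They were taken from the count table by symbol: genes that begin with Nduf (complex I), Sdha, Sdhb, Sdhc or Sdhd (complex II), Uqcr (complex III), Cox4, Cox5, Cox6, Cox7 or Cox8 (complex IV) or Atp5 (complex V), with at least 20 unique molecular identifiers (UMIs, counts of tagged transcripts) over all cells. Of 96 such symbols, 88 reached 20 UMIs, among 8988 of the 23725 genes in the table that did. The 88 genes comprise 43 of complex I, 7 of complex II, 8 of complex III, 13 of complex IV and 17 of complex V. The prefixes also take in 7 complex I (Ndufaf) and 3 complex II (Sdhaf) assembly factors and the supercomplex factor Cox7a2l. They further take in 2 Atp5 genes, Atp5s and Atp5sl, which RefSeq lists as Dmac2l and Dmac2. Both were summed with complex V by their prefix, but not with its F1, membrane or stalk subunits. Ndufa4 was counted with complex IV, to which its protein belongs.

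Both groups came from the spleen of male B6 Foxp3-Ires-Gfp mice aged 8 months, which carry a green fluorescent reporter of Foxp3, the factor that specifies regulatory T cells (Treg). Live CD4+ TCR beta+ cells were sorted as Foxp3+ (Treg, 816 cells) or Foxp3- conventional T cells (Tconv, 1300 cells) and encapsulated with inDrops, a droplet method with oligo dT priming. The sort description names GFP+ cells for both groups. Foxp3 itself had 558 UMIs in Treg against 6 in Tconv. Each group is 1 library and no label names animals, so there is no replicate spread, no test between groups, and library and population cannot be told apart. All intervals below are exact 95% intervals for counting error only, and they are too narrow because UMIs of a gene gather in the same cells.

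Oxidative phosphorylation passes electrons from NADH (complex I) and succinate (complex II) through complexes III and IV to oxygen. The resulting proton gradient drives complex V, the ATP synthase. Most subunits are encoded in the nucleus and imported, and a few by mitochondrial DNA; genes with mt- names were not in the table. In T cells, respiration is known to matter for resting, memory and regulatory cells, while activation is known for adding glycolysis.

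Depth was 1468203 UMIs in the Treg library and 2002752 in the Tconv library, with medians of 1688.5 and 1510.5 UMIs per cell. Mapped reads per UMI had medians of 31.3 and 18.7. The share of cytosolic ribosomal protein genes was 25.6% in Treg and 32.0% in Tconv, so a share of all UMIs is shifted upward for most other genes in Treg: the median log2 ratio of all 8988 genes was 0.14. Cells with at least 3 UMIs of markers of platelets or of B, plasma, myeloid, erythroid, CD8, NK or plasmacytoid dendritic cells numbered 49 (6.005%) in Treg and 31 (2.38%) in Tconv. The 9 detected T lineage markers summed to 4835 and 5055 counts per 1000000 UMIs (CPM). The libraries shared 12 cell barcodes.

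The 88 genes together differed little between the libraries. They had 22256 UMIs in Treg, or 15159 CPM (1.52% of UMIs), and 28529 in Tconv, or 14245 CPM (1.42%). The log2 ratio of Treg over Tconv was 0.09 (0.06 to 0.12), below the median gene at 0.14. The sign depended on the scaling: without ribosomal protein genes in the total it was -0.04, and with TMM factors, which centre on the bulk of genes, it was -0.07. The median over the 88 genes was 0.11, which lies 0.03 below the median of all genes. These 3 scalings shift every gene by 1 amount and so leave that gap as it is. It was -0.07 with each cell weighted equally and -0.13 in cells thinned to 1000 UMIs.

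A ratio above 1 was found for 61 members and below 1 for 27, where 61.2% of all genes were above 1 and 38.8% below. With ribosomal protein genes left out the split was 43 to 45 (48.9% above 1, against 50.6% of all genes), and with TMM factors 36 to 52 (40.9%, against 48.8%). At least 1.5-fold higher in Treg were 3 members (Cox6a2, Sdhaf1 and Ndufs8), against a background of 20.6% of all genes. At least 1.5-fold lower were 3 (Ndufaf4, Ndufaf6 and Ndufa10), against 9.16% of all genes. Both counts lie below the background share.

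The ratios of the members lay close together. Their middle 50% ran from -0.02 to 0.26, a width of 0.29, against 0.69 for all genes. Among the lists described below, cytosolic ribosomal proteins (0.25), the tricarboxylic acid cycle (0.21), complex IV assembly factors (0.26) and ATP and phosphate carriers (0.14) were narrower. The remaining lists were wider, from 0.35 for the proteasome to 0.85 for fatty acid oxidation. A narrow width is therefore not particular to the members. Since a gene with few UMIs scatters more, the members were also set beside the 2217 genes with 195 to 827.75 UMIs, the middle range of the members. There the width was 0.50 for all genes and 0.30 for the 45 members in that range. Of those 45 members 0 were past 1.5-fold in either direction, against 365 (16.5%) of the 2217 genes. Intervals lay wholly above the median of all genes for 6 members (Atp5j, Cox6a2, Ndufa6, Uqcrb, Ndufc2 and Sdhaf1), where 16.4% of all genes did so, and wholly below it for 14, where 14.4% did. An interval narrows with UMIs, and the members had a median of 352.5 UMIs against 108 for all genes. In the middle range 2 of the 45 members (4.44%) lay wholly above and 5 (11.1%) wholly below, against 21.2% and 18.1% of the 2217 genes. Cox6a2 passed the minimum through Treg alone. This is a description of a pair of libraries, with no test.

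**Figure D1:**
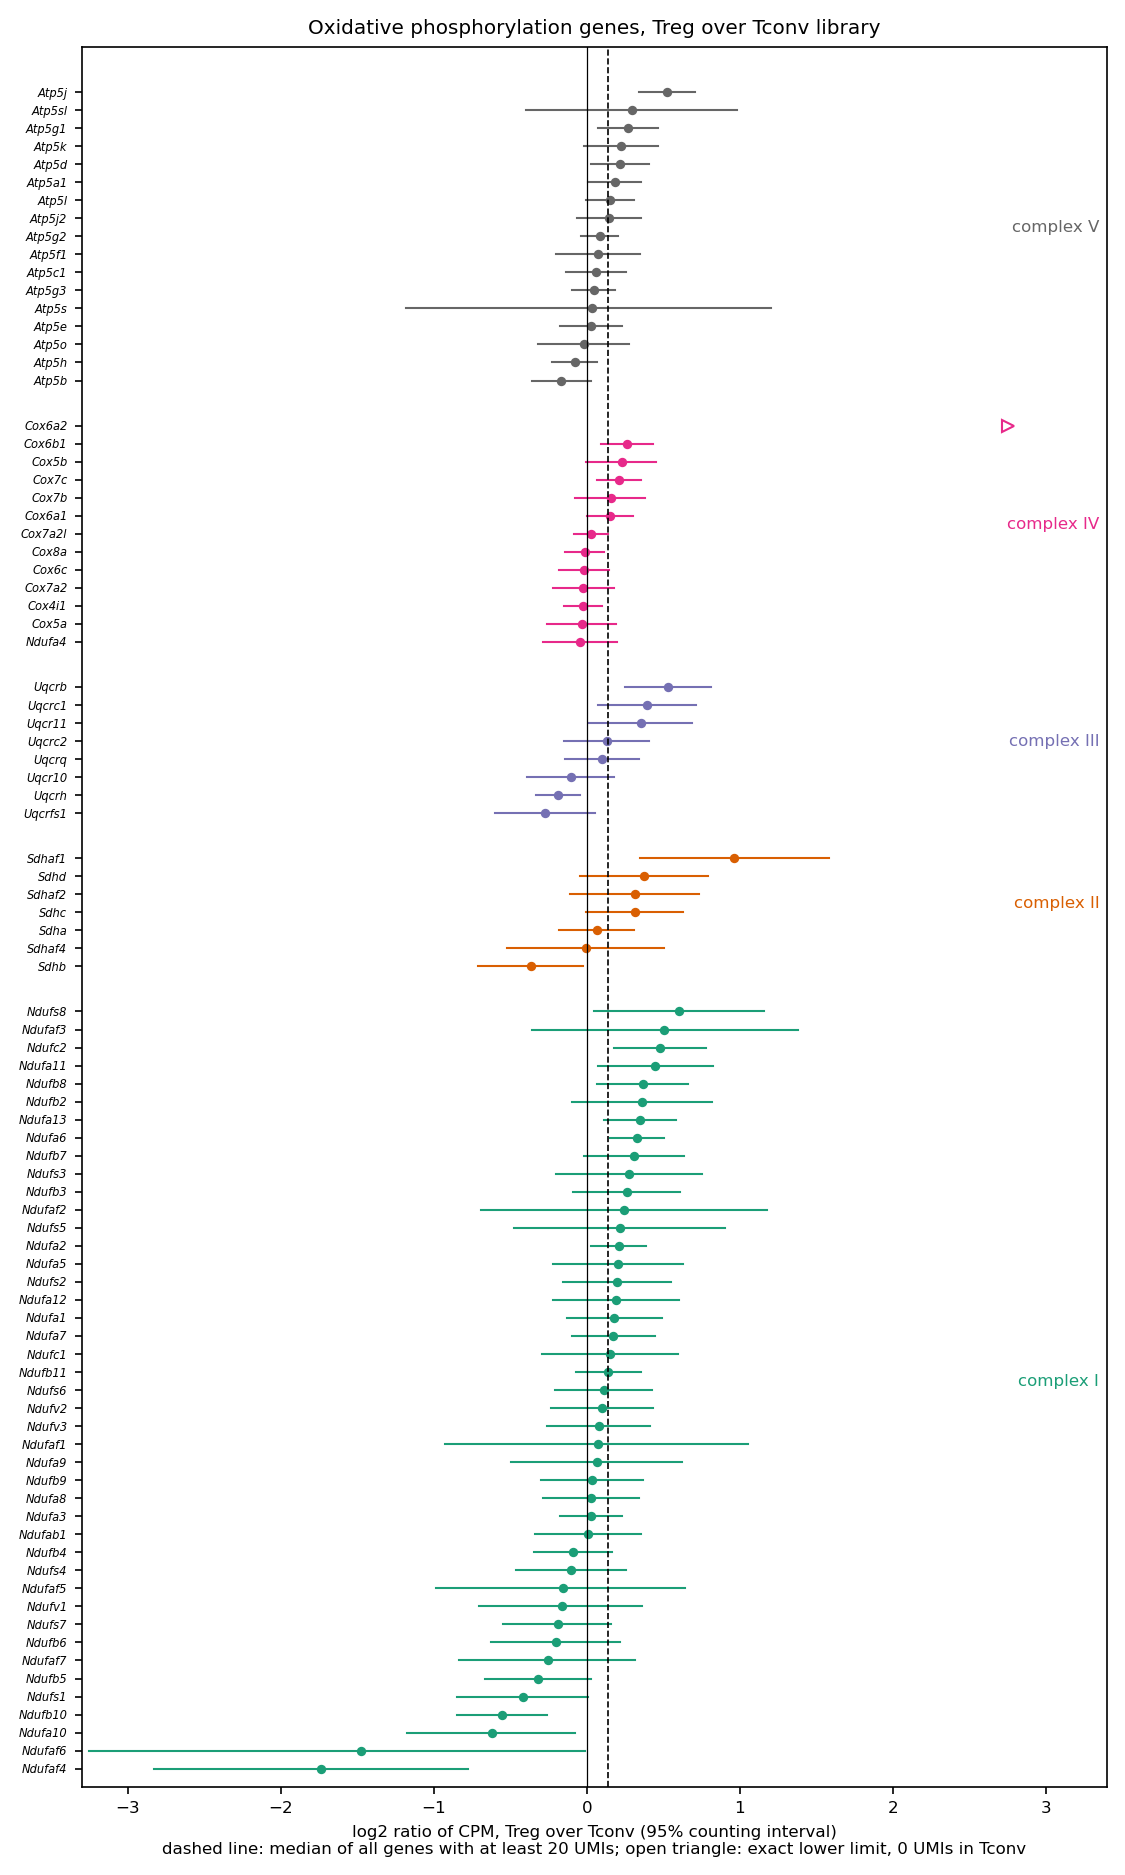
Log2 ratio of CPM (Treg over Tconv, horizontal axis) of the 88 members, sorted within each complex; points are ratios, lines 95% counting intervals, and the dashed line the median of all genes. Most members lie around the dashed line at 0.14; Ndufaf4 at -1.74 and Cox6a2, drawn at its exact lower limit of 2.75 since Tconv had 0 UMIs, lie farthest from it, and the side of 0 on which the bulk falls changes with the scaling.

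Because shares within the members do not depend on the scaling, the make-up of the oxidative phosphorylation UMIs gives a comparison free of it. Complex V held 31.1% in Treg and 30.7% in Tconv, complex IV 30.7% and 31.2%, complex I 25.7% and 25.4%, complex III 8.73% and 9.12%, and complex II 3.69% and 3.56%. All 5 pairs of intervals overlapped. The order of the 88 genes by CPM was also nearly the same in both libraries, with Spearman's rho 0.98 across genes, which are not independent replicates. For single genes as a share of their complex, the intervals lay apart for 8 of the 88 and overlapped for the rest. The single-gene shares printed below come from these 8. A share of a complex has no counterpart over all genes.

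**Figure D2:**
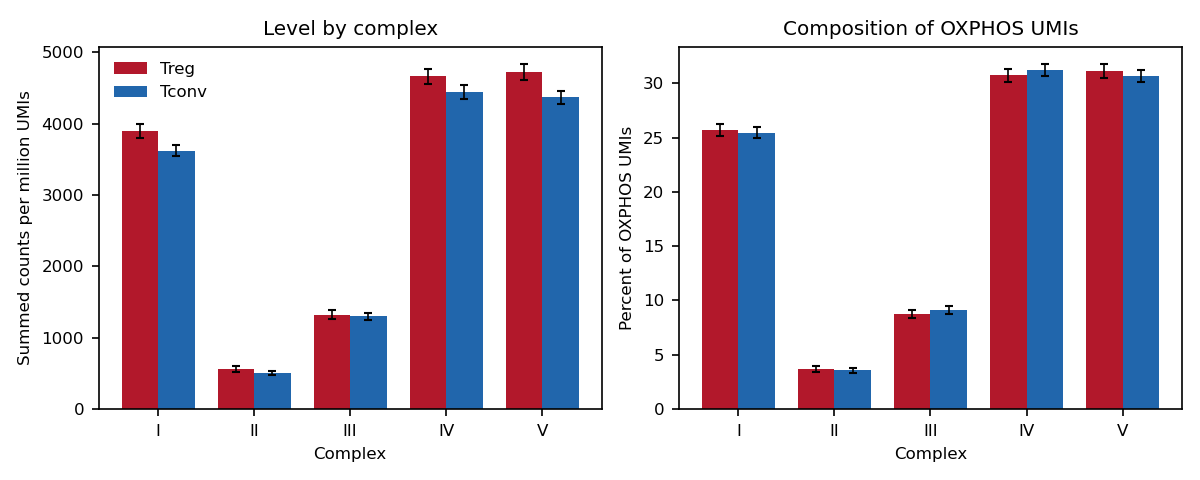
Summed CPM of each complex (left) and its percent of oxidative phosphorylation UMIs (right) in the Treg and Tconv libraries, with 95% counting intervals and axes from 0. The left bars are slightly higher in Treg for every complex, with log2 ratios below 0 for all but complex II without ribosomal protein genes in the total, while the right bars have overlapping intervals for all 5.

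Complex I, which oxidises NADH, had 5717 UMIs (3894 CPM) in Treg compared with 7256 (3623 CPM) in Tconv, with a log2 ratio of 0.10 (0.05 to 0.15). Of its 43 members 30 were above 1 and 13 below. The 29 accessory subunits summed to 0.13 (0.07 to 0.18) and the 7 nuclear core subunits, which carry the flavin and iron-sulfur centres or line the electron path, to 0.03 (-0.12 to 0.18). Of the 7 assembly factors 3 were above 1 and 4 below, beside the same shares of all genes. They summed to 98.1 CPM in Treg and 121 CPM in Tconv, a log2 ratio of -0.31 (-0.61 to -0.00). That sum rests on Ndufaf4: without it the other 6 had 133 and 193 UMIs and lay at -0.09 (-0.42 to 0.24), a value chosen after seeing the data.

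The most abundant complex I members by UMIs were accessory subunits. Ndufa6, which helps anchor the acyl carrier protein to the complex, had 515 UMIs in Treg (351 CPM) against 559 in Tconv (279 CPM), a log2 ratio of 0.33 (0.15 to 0.50). Ndufa2 had 474 and 559 UMIs (323 and 279 CPM), a log2 ratio of 0.21 (0.03 to 0.39). Ndufa3 had 354 and 473 UMIs (241 and 236 CPM) and lay at 0.03 (-0.17 to 0.23). Oligo dT priming tags transcripts near their 3' end, so these UMI levels were not divided by transcript length.

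Ndufaf4, an assembly factor (chr4:24898083-24905001 in mm10), stood farthest below. It had 11 UMIs in 10 Treg cells (7.49 CPM) and 50 UMIs in 38 Tconv cells (24.97 CPM), a log2 ratio of -1.74 (-2.83 to -0.78). No single cell held more than 4 of these UMIs. Under the 7 alternative scalings and cell filters the ratio ran from -2.02 to -1.59. Ndufaf6, another assembly factor, had 5 and 19 UMIs and is one of the members just above the 20 UMI minimum. Ndufa10, an accessory subunit, had 43 and 90 UMIs (-0.62, from -1.18 to -0.08), and Ndufs8, an iron-sulfur core subunit, 60 and 54 (0.60, from 0.05 to 1.16). The other 5 assembly factors lay between -0.26 and 0.51 with intervals that all held 0.

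Ndufb10, an accessory subunit of the membrane arm (chr17:24722060-24724478), had 146 UMIs in Treg (99.4 CPM) compared with 292 in Tconv (146 CPM), a log2 ratio of -0.55 (-0.85 to -0.26). Its share of complex I UMIs was 2.55% (2.16 to 2.996) in Treg and 4.02% (3.58 to 4.50) in Tconv. Ndufc2, also an accessory subunit, had 189 UMIs in Treg (129 CPM) against 185 in Tconv (92.4 CPM), a log2 ratio of 0.48 (0.18 to 0.78), and overlaps the gene model Gm16053 on the same strand.

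Complex II, succinate dehydrogenase, links the tricarboxylic acid cycle to the respiratory chain and has no subunit in mitochondrial DNA. It had 822 UMIs (560 CPM) in Treg compared with 1017 (508 CPM) in Tconv, a log2 ratio of 0.14 (0.01 to 0.27), which was -0.01 with TMM factors and -0.09 with cells thinned to 1000 UMIs. Its 4 subunits did not share a direction. The catalytic flavoprotein Sdha had 243 UMIs in Treg against 317 in Tconv (166 and 158 CPM), a log2 ratio of 0.06 (-0.18 to 0.31).

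Sdhb, the iron-sulfur subunit, had 115 UMIs in Treg compared with 202 in Tconv (78.3 and 101 CPM), a log2 ratio of -0.36 (-0.71 to -0.03). The membrane anchors Sdhc (162 and 178 UMIs) and Sdhd (95 and 100 UMIs) lay above 0, at 0.31 (-0.00 to 0.63) and 0.37 (-0.05 to 0.79). Sdhb therefore made up 14.0% (11.7 to 16.5) of complex II UMIs in Treg against 19.9% (17.5 to 22.4) in Tconv.

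Sdhaf1, a factor for iron-sulfur insertion into Sdhb (chr7:30321406-30323895), had 57 UMIs in 42 Treg cells and 40 UMIs in 26 Tconv cells (38.8 and 19.97 CPM). Its log2 ratio of 0.96 (0.35 to 1.58) was opposite in sign to that of Sdhb. It overlaps E130208F15Rik on the other strand, and whether the authors' counting used strand is not given in the sources used here. Sdhaf2, needed for flavin attachment to Sdha, had 93 and 102 UMIs and lay at 0.31 (-0.11 to 0.73). Sdhaf4, which helps join Sdha to Sdhb, had 57 and 78 UMIs and lay at -0.00 (-0.52 to 0.51). Sdhaf3, below the minimum, had 0 UMIs in Treg compared with 7 in Tconv.

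Complex III, which passes electrons from ubiquinol to cytochrome c, had 1944 UMIs (1324 CPM) in Treg against 2601 (1299 CPM) in Tconv, a log2 ratio of 0.03 (-0.06 to 0.11). This sum rests on Uqcrh, the hinge protein, with 673 UMIs in Treg (458 CPM) compared with 1046 in Tconv (522 CPM), a log2 ratio of -0.19 (-0.33 to -0.05). Without Uqcrh the other 7 members gave 0.16. Uqcrh made up 34.6% (32.5 to 36.8) of complex III UMIs in Treg against 40.2% (38.3 to 42.1) in Tconv. Its ratio was -0.03 in cells thinned to 1000 UMIs, and the annotation names 2 Uqcrh pseudogenes (Uqcrh lies at chr4:116066965-116075071), so its counts are uncertain.

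Uqcrb, a small subunit next to cytochrome b, had 218 UMIs in Treg compared with 206 in Tconv (148 and 103 CPM), a log2 ratio of 0.53 (0.25 to 0.81). The core protein Uqcrc1 had 163 and 169 UMIs (111 and 84.4 CPM), a log2 ratio of 0.40 (0.08 to 0.71). Its partner Uqcrc2 had 195 and 243 UMIs (133 and 121 CPM) and lay at 0.13 (-0.15 to 0.41). Uqcrq had 249 and 317 UMIs and lay at 0.10 (-0.15 to 0.34). The Rieske iron-sulfur protein Uqcrfs1 had 127 and 209 UMIs and lay at -0.27 (-0.60 to 0.05).

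Complex IV, cytochrome c oxidase, reduces oxygen and has several subunits with tissue isoforms. Its 13 members had 6843 UMIs (4661 CPM) in Treg against 8899 (4443 CPM) in Tconv, a log2 ratio of 0.07 (0.02 to 0.11), which was -0.06 with ribosomal protein genes left out. Cox7a2l, the supercomplex factor and the most abundant member of all, had 1135 UMIs in Treg compared with 1521 in Tconv (773 and 759 CPM), a log2 ratio of 0.03 (-0.09 to 0.14). Cox4i1 had 890 and 1235 UMIs (606 and 617 CPM) and lay at -0.02 (-0.15 to 0.10). Cox8a had 857 and 1180 UMIs (584 and 589 CPM) and lay at -0.01 (-0.14 to 0.11). These genes with the most UMIs had CPM values whose intervals overlap between the libraries.

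Cox6b1, which faces the intermembrane space, had 540 UMIs in Treg against 613 in Tconv (368 and 306 CPM), a log2 ratio of 0.27 (0.10 to 0.43). Where an isoform pair exists, the ubiquitous isoform held nearly all UMIs. Cox4i2, an isoform known from lung, had 0 UMIs in Treg compared with 1 in Tconv. The muscle isoform Cox7a1 had 1 and 1, against 360 and 499 for Cox7a2, Cox8b had 0 in both and Cox8c 0 and 1. Cox7b2, an isoform of Cox7b (289 and 354 UMIs), also had 0 in both. Ndufa4l2, known as induced by low oxygen, had 0 and 1, against 247 and 347 for Ndufa4. The floor of 3 counts set for a count of 0 is 2.04 CPM in Treg and 1.498 CPM in Tconv. The exact upper limit of a count of 0 is higher, at 2.51 CPM in Treg.

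Cox6a2, the heart and muscle isoform of Cox6a1 (chr7:128205435-128206387), stood just inside the 20 UMI minimum. It had 20 UMIs in Treg against 0 in Tconv, which is 9.09-fold higher when the Tconv library is set to a floor of 3 counts, with an exact lower limit of 6.73-fold. Having passed the minimum through Treg alone, it had to differ. Cox6a1 had 673 and 827 UMIs. Its 20 UMIs lay in 3 cells, with 13, 6 and 1. The cells with 13 and 6 carried 65 and 48 UMIs of the plasmacytoid dendritic list (for example 10 and 9 of Siglech, 23 and 18 of Bst2, 15 and 17 of Irf8), 1 and 2 UMIs of the T lineage list and 0 of Foxp3. The cell with 13 had 0 UMIs of Cox6a1 and the cell with 6 had 6. Without cells carrying at least 3 UMIs of another type's markers, 1 UMI of Cox6a2 remained.

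In the Tconv library, 14 cells carried at least 3 UMIs of the plasmacytoid dendritic list, and none had a Cox6a2 UMI. In Treg 19 cells did so, and only 2 of them had Cox6a2 UMIs, those with 65 and 48 UMIs of the list. Cells past 3 UMIs of the list are therefore not all alike, and the libraries cannot be compared for Cox6a2 in such cells. The whole list summed to 237 CPM in Treg and 126 CPM in Tconv. Cox6b2, known from testis, had 11 UMIs in 6 Treg cells and 0 in Tconv and lies just outside the minimum. None of its 6 cells carried 3 or more UMIs of another type's markers.

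Complex V, the ATP synthase, had 6930 UMIs (4720 CPM) in Treg compared with 8756 (4372 CPM) in Tconv, a log2 ratio of 0.11 (0.06 to 0.16), which was -0.02 with ribosomal protein genes left out. The 5 subunits of the F1 head summed to 0.07 (-0.01 to 0.15) and the 10 of the membrane part and stalks to 0.13 (0.07 to 0.18). Atp5j, coupling factor 6 of the stalk, had 510 UMIs in Treg (347 CPM) against 484 in Tconv (242 CPM), a log2 ratio of 0.52 (0.34 to 0.71). It held 7.36% (6.76 to 8.00) of complex V UMIs in Treg compared with 5.53% (5.06 to 6.03) in Tconv. Atp5j (chr16:84827866-84835625) overlaps Gabpa on the other strand, which had 81 and 76 UMIs.

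The catalytic beta subunit Atp5b had 367 UMIs in Treg against 562 in Tconv (249.96 and 281 CPM), a log2 ratio of -0.17 (-0.36 to 0.03). It held 5.30% (4.78 to 5.85) and 6.42% (5.91 to 6.95) of complex V UMIs. It and Ndufs8, Ndufa10, Uqcrfs1 and the pair Gabpa and Nrf1 are named after their values were seen. Atp5h, a peripheral stalk subunit, had 646 and 930 UMIs (440.0 and 464 CPM) and lay at -0.08 (-0.22 to 0.07).

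Atp5g1, Atp5g2 and Atp5g3 encode the same mature c subunit of the rotor. Atp5g2 had 984 UMIs in Treg compared with 1266 in Tconv (670.2 and 632 CPM), Atp5g3 720 and 952 (490.4 and 475 CPM), and Atp5g1 418 and 473 (285 and 236 CPM). The order of the 3 genes was the same in both libraries, and their CPM intervals did not overlap within a library. Their log2 ratios were 0.08 (-0.04 to 0.21), 0.04 (-0.10 to 0.19) and 0.27 (0.08 to 0.46).

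Nuclear respiratory genes are known targets of NRF1, GABPA (NRF-2), YY1, ERR alpha and others, so the 250 bases before each start were searched in RefSeq promoters (GRCm38.p6, the assembly of mm10) on both strands. A window was found for 75 of the 88 members, at the first listed start of each gene. Of 74 windows checked, the bases just after the start were found in a transcript of the gene for 66. For the others the window may not lie before an annotated start. The NRF1 motif GCATGCGC was in 9 (12.0%), against 5.13% of the 6933 measured genes with a window and 2.32% of all 27025 windows. The 9 were Atp5g2, Atp5k, Atp5l, Cox6a1, Ndufa11, Ndufa6, Ndufa8, Ndufaf4 and Sdhb. Their median log2 ratio was 0.15 and that of the members without the motif 0.09. The 9 ran from -1.74 for Ndufaf4, the lowest member, to 0.45 for Ndufa11. Sdhaf1 (0.96) and Ndufs8 (0.60) had a window without these letters.

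The other motifs, as shares of the members, of measured genes and of all windows, were as follows. GABPA (CCGGAAGT) was in 4%, 7.18% and 2.93%, and YY1 (AAGATGGC) in 0%, 2.32% and 1.59%. ERR (AAGGTCA) was in 6.67%, 2.80% and 4.05%, and CREB (TGACGTCA) in 5.33%, 2.84% and 1.62%. The E-box CACGTG was in 9.33%, 8.94% and 6.05%, and SP1 (GGGCGG) in 41.3%, 60.5% and 32.9%. A match is a description of letters, not a binding site. The 3 windows below held the most different motifs or, among ties, came first by name; capitals mark matches on either strand. Atp5l is at chr9:44920743-44920992, Atp5f1 at chr3:105959264-105959513 and Atp5g3 at chr2:73911327-73911576, all on the minus strand and 5' to 3'.
Atp5l: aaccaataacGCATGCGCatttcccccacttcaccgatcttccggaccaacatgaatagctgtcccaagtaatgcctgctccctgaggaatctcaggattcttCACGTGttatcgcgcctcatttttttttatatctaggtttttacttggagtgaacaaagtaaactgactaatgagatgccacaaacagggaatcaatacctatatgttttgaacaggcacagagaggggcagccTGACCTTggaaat
Atp5f1: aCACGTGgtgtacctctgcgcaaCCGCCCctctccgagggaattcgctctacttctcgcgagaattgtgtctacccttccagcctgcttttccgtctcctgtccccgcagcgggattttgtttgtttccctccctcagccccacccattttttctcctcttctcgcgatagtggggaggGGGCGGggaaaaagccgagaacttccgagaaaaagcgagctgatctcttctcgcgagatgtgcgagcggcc
Atp5g3: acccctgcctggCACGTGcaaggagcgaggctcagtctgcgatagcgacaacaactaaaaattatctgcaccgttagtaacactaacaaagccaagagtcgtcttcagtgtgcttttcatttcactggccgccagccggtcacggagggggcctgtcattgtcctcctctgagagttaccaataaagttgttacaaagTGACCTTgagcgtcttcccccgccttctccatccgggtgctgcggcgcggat
The Atp5l window held NRF1, ERR and E-box letters, the Atp5g3 window ERR and E-box letters and the Atp5f1 window E-box and SP1 letters. These genes had log2 ratios of 0.15, 0.04 and 0.07, all near the median member.

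Other mitochondrial gene lists were set beside the members. Fatty acid oxidation, which feeds electrons into the chain, summed to 0.34 (0.22 to 0.46), with 7 of 15 genes at least 1.5-fold higher in Treg and 0 lower (20.6% and 9.16% of all genes). Among them Hadha, of the trifunctional protein, had 173 and 153 UMIs, and Etfdh, which passes electrons to ubiquinone, had 44 and 27 (log2 ratios of 0.63 and 1.15). Hadhb, also abundant in the list, had 171 and 192 UMIs, a log2 ratio of 0.28 (-0.03 to 0.59). The list was split in direction, with 8 genes above 1 and 7 below, against 61.2% and 38.8% of all genes. Antioxidant enzymes of mitochondria summed to 0.32 (0.22 to 0.41), with 2 of 7 at least 1.5-fold higher, against 20.6% of all genes. Prdx5, a peroxiredoxin, had 209 and 166 UMIs and a log2 ratio of 0.78 (0.48 to 1.08).

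Regulators of mitochondrial genes summed to 0.29 (0.19 to 0.38), with 4 of 17 at least 1.5-fold higher (20.6% of all genes) and 3 lower (9.16% of all genes). Gabpb1, the partner of GABPA, had 103 UMIs in Treg against 62 in Tconv, a log2 ratio of 1.18 (0.71 to 1.66), and Hif1a 149 and 100, a log2 ratio of 1.02 (0.65 to 1.40). Nrf1 had 79 and 58 UMIs, a log2 ratio of 0.89 (0.39 to 1.41). The 3 lower genes, named after their values were seen, were Tfb1m, an rRNA methyltransferase of mitochondria, with 4 and 19 UMIs (-1.80, from -3.82 to -0.21), the coactivator Pprc1 with 22 and 61 (-1.02, from -1.80 to -0.30) and Polg2, of the mitochondrial DNA polymerase, with 14 and 29 UMIs (-0.60, from -1.64 to 0.36). The members themselves lay at a median of 0.11 beside these regulators.

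The tricarboxylic acid cycle summed to 0.21 (0.14 to 0.27) while its median gene lay at 0.04; Ogdh alone had 1518 and 1666 UMIs, a log2 ratio of 0.31 (0.21 to 0.41). Mitochondrial chaperones and proteases summed to -0.17 (-0.27 to -0.07), with Yme1l1 at 24 and 96 UMIs (-1.55, from -2.26 to -0.89). Carriers of ATP and phosphate summed to -0.05 (-0.14 to 0.04) and coenzyme Q synthesis to -0.23 (-0.56 to 0.10). Cycs, which encodes cytochrome c, had 441 and 428 UMIs, a log2 ratio of 0.49 (0.30 to 0.69), and its list of 5 genes summed to 0.23 (0.12 to 0.34). Complex IV assembly factors summed to 0.04 (-0.07 to 0.15), with Coa6 at 16 and 49 UMIs (-1.17, from -2.08 to -0.33).

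Mitochondrial ribosomal proteins summed to 0.03 (-0.02 to 0.08) over 76 genes, and protein import to 0.08 (0.01 to 0.15) over 23. Outside the organelle, the proteasome summed to 0.19 (0.14 to 0.24), glycolysis to 0.01 (-0.07 to 0.08) and cytosolic ribosomal proteins to -0.32 (-0.33 to -0.32), with 71 of 82 genes lower in Treg, against 38.8% of all genes. Within glycolysis the glucose transporter Slc2a3 had 139 UMIs in Treg compared with 37 in Tconv, a log2 ratio of 2.36 (1.83 to 2.92). A different total for each library shifts all of these values by 1 amount: leaving out ribosomal protein genes moves the median gene from 0.14 to 0.01.

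**Figure D3:**
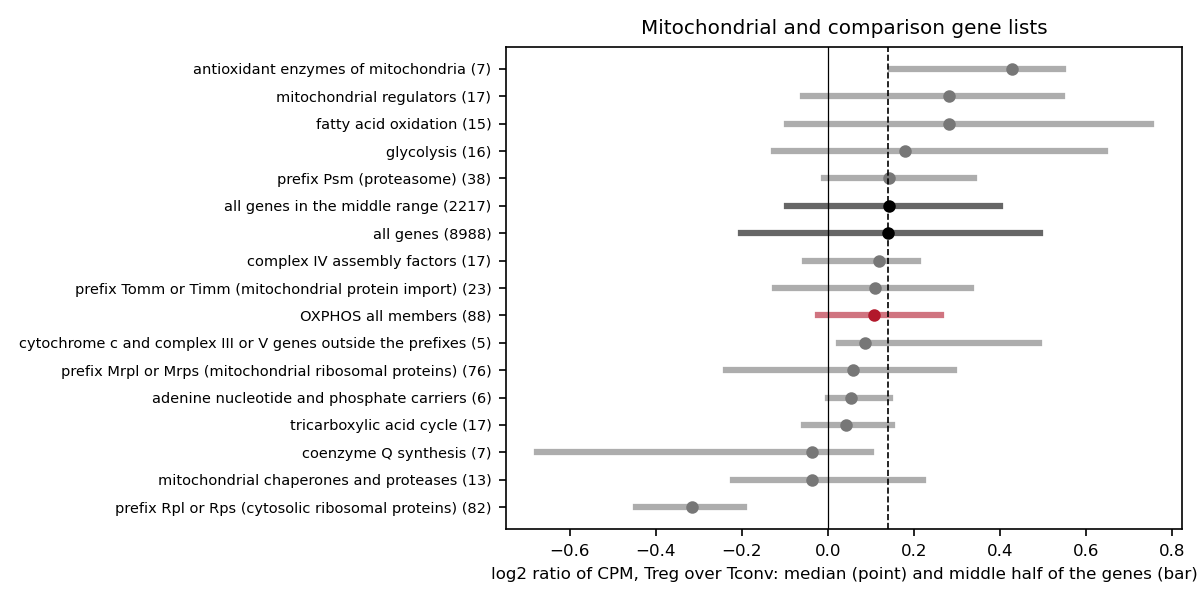
Median log2 ratio of CPM, Treg over Tconv (points), and the middle 50% of genes (bars) for each list, with the number of genes in brackets; the dashed line is the median of all genes. The members have a median of 0.11 and a width of 0.29, against 0.69 for all genes. Other lists range from 0.14 for ATP and phosphate carriers to 0.85 for fatty acid oxidation, with cytosolic ribosomal proteins at 0.25. Another library total moves every position by 1 amount.

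Within each library, cells were compared after thinning each to 1000 UMIs, which kept 738 Treg and 1108 Tconv cells and left out 78 and 192 shallower ones. A Treg cell held 14.8 ± 5.19 (SD over 738 cells) oxidative phosphorylation UMIs of 1000, with a median of 14 and a range of 3 to 33. A Tconv cell held 14.2 ± 4.77 (SD over 1108 cells), with a median of 14 and a range of 2 to 33. Without thinning, the medians were 25 and 21 UMIs per cell. None of these cells was without a UMI of the 88 genes, and since every cell type expresses them, free RNA in the droplets could not be measured from a type that lacks them.

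**Figure D4:**
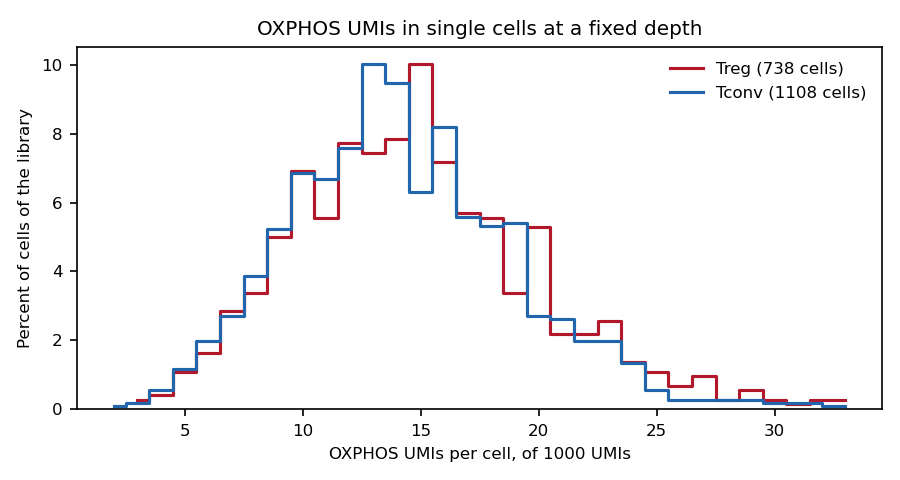
Percent of cells (vertical axis) with each number of oxidative phosphorylation UMIs of 1000 (horizontal axis) in the Treg and Tconv libraries. Both have a median of 14 and overlap over nearly their whole range, with an SD of 5.19 in Treg and 4.77 in Tconv.

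The ratio of variance to mean (Fano factor, near 1 for independent counts) of the summed UMIs was 1.82 in Treg and 1.60 in Tconv. Of the variance beyond independent counts, 73.6% in Treg and 52.6% in Tconv lay within single genes, as UMIs of 1 gene gathered in a cell. The rest was covariance between genes. Across cells, counts of complexes I, III, IV and V had Pearson's r of -0.01 to 0.06 in Treg (738 cells) and -0.01 to 0.09 in Tconv (1108 cells), values from sparse counts that share each cell's fixed total of 1000 UMIs.

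Single members gathered less than the typical gene with at least 0.05 UMIs per cell. The median Fano factor was 1.44 for 69 members and 1.74 for 3267 genes in Treg, and 1.18 for 68 members and 1.35 for 2881 genes in Tconv. Ndufc2 was highest in Treg at 3.14, with 108 thinned UMIs in 49 cells and up to 6 in a cell. Next in Treg were Ndufab1 (2.53), Sdha (2.45), Uqcrc2 (2.42) and Atp5g1 (2.27). In Tconv the highest were Sdha (1.88), Ndufs1 (1.72), Atp5g3 (1.71), Ndufc2 (1.70) and Atp5g2 (1.69).

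The share of UMIs in these genes was compared across 4 equal groups of cells ordered by their total UMIs. In Treg it was 14217, 14853, 14519 and 16080 CPM from the shallowest to the deepest group, and in Tconv 13739, 14403, 13775 and 14701 CPM. The deepest group was highest in both libraries and the order of the others was not the same as the order of depth.

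Cells were then classed by UMIs of fixed lists in the thinned counts, those with 3 or more against those with 0. For the growth list (Myc, nucleolar and translation genes), 429 Treg cells had 14783 CPM and 71 had 14268 CPM, a log2 ratio of 0.05 (-0.05 to 0.15). In Tconv 690 cells had 14543 CPM and 73 had 13411 CPM, a log2 ratio of 0.12 (0.02 to 0.21). At 500 UMIs these ratios were -0.05 and -0.02, so no direction can be read. For the effector or memory list (S100a4, Ahnak, Itgb1 and others) the ratios were 0.09 (0.02 to 0.17) in Treg and 0.06 (-0.00 to 0.12) in Tconv, and -0.06 and -0.00 at 2000 UMIs. In Treg, ribosomal protein genes took 232313 CPM in the cells with 3 or more and 268286 CPM in those with 0, and 3.52% and 10.4% of these cells carried markers of another type. Without ribosomal protein genes in the total the Treg cells had 19824 and 19506 CPM and the Tconv cells 20962 and 20921 CPM.

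The resting list (Ccr7, Lef1, Tcf7 and others) gave the widest gap, in 1 thinning of the cells that was not repeated with another seed or depth. In Tconv 859 cells with 3 or more UMIs had 14013 CPM and 32 cells with 0 had 16938 CPM, a log2 ratio of -0.27 (-0.40 to -0.15). The 217 cells with 1 to 2 UMIs lay between, at 14641 CPM. Of the 32 cells 6 carried markers of another type, against 9 of the 859. Without all such cells the ratio was -0.30. Ribosomal protein genes took 271594 CPM in the 32 cells and 325243 CPM in the 859. With them left out of the total the cells had 23253 and 20767 CPM. In Treg the 315 cells with 3 or more had 14571 CPM and the 153 with 0 had 15033 CPM, a log2 ratio of -0.04 (-0.12 to 0.03), an interval that holds 0. The part of ribosomal protein genes and of other cell types in these gaps was not tested further, and the difference between the libraries was not tested.

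For genes of the T cell receptor response the ratios were 0.08 (0.00 to 0.15) in Treg and 0.07 (-0.02 to 0.17) in Tconv. Ribosomal protein genes took 236272 CPM in the Treg cells with 3 or more and 266132 CPM in those with 0, and without them in the total these cells had 20007 and 19712 CPM. The part of ribosomal protein genes in the ratios of both lists was not tested further. For proliferation genes the ratios were -0.04 (-0.17 to 0.09) in Treg and 0.00 (-0.09 to 0.10) in Tconv. Only the growth list and the effector or memory list were repeated with another seed or depth. Within the Treg library, 421 cells with 3 or more UMIs of Treg markers had 15036 CPM and 111 cells with 0 had 14396 CPM, a log2 ratio of 0.06 (-0.02 to 0.14); this last class was added after the other values were seen. In the full counts of all cells, without thinning, cells with markers of other types had 14645 CPM in Treg and 16910 CPM in Tconv. The other cells had 15199 and 14150 CPM. The marked cells were deeper, with medians of 1878 and 1740 UMIs against 1681 and 1504.

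**Figure D5:**
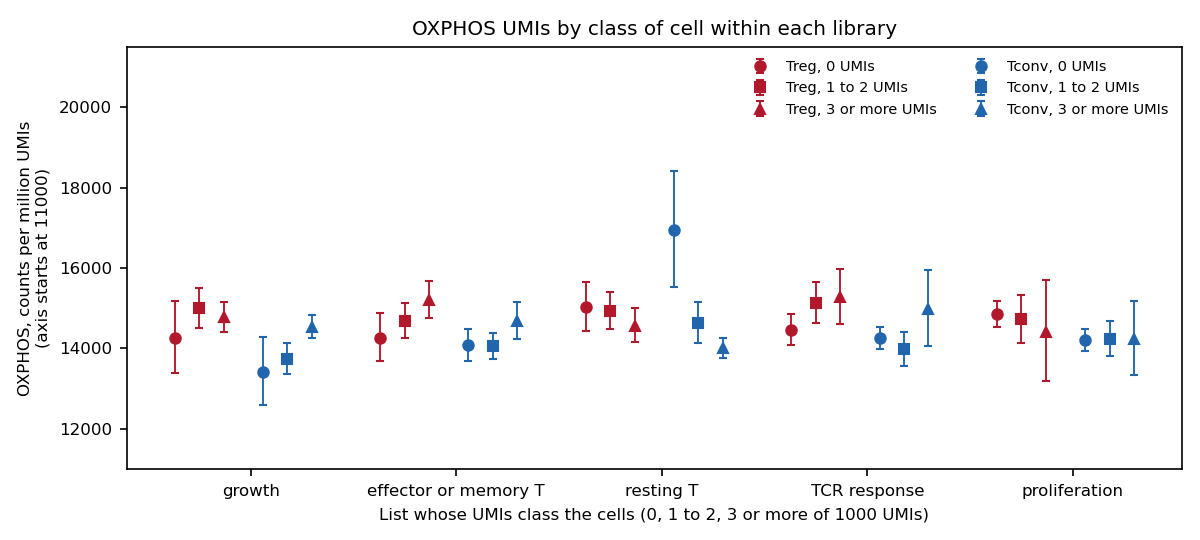
Oxidative phosphorylation CPM (vertical axis, not from 0) in cells with 0, 1 to 2, or 3 or more UMIs of 5 lists, in the Treg and Tconv libraries, with 95% counting intervals. The 32 Tconv cells with 0 UMIs of the resting list stand highest at 16938 CPM, and the 73 Tconv cells with 0 UMIs of the growth list lowest at 13411 CPM.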

How the data were processed

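The authors deposited 1 table of UMI counts, raw whole numbers per gene and cell, from an oligo dT inDrops protocol per the labels. TopHat2, SAMtools and the build mm10 stand in the submitters' processing notes. How UMIs were counted, with which annotation and after which cell filter is not given in the sources used here. Cells were grouped by their sample labels; all 2116 were used. UMIs were summed per library and scaled to 1000000 UMIs (CPM). Sums have exact Poisson intervals, ratios exact conditional intervals and shares Clopper-Pearson intervals, all at 95% (scipy 1.17.1). Depth was 1468203 UMIs in Treg and 2002752 in Tconv. For a gene with 0 UMIs in a library, bounds were taken from 3 counts over that library. With 1 library per group no p-value was computed. Cells were thinned without replacement to 1000 UMIs. Doublets were called with scrublet in scanpy 1.11.5, which marked 1 Treg and 12 Tconv cells; these were kept except in the alternative that leaves them out. TMM factors came from edgeR 4.0.16, with no edgeR test. The interval and thinning code was tested on simulated data.

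Alternatives were other totals, cell weights, thinning, cell filters, minimum UMIs and fold limits. The members and gene lists were chosen with earlier results of these data known. From the resting list, 1 gene that is not reported here was left out after the values had been seen. Named genes are, per complex, the 3 most abundant members and up to 2 with the nearest interval bound farthest from 0 on each side; isoform sets; the 5 highest Fano factors per library; all of complex II; the members beside the 20 UMI minimum; and from each other list the 2 most abundant genes and the farthest 1, of which those that bear on the text are printed. Positions are from GENCODE vM21; Atp5o had 2 matches and was not placed. Of the members, 5 have pseudogenes named after them, and reads may be split with these.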

Additional observations from a re-analysis of the deposited data

Results flagged for a closer look

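A pair of genes below the 20 UMI minimum, and so outside the comparisons, had UMIs in 1 library above the floor of 3 counts set for a count of 0 and none in the other. Cox6b2, an isoform of Cox6b1, had 11 UMIs in Treg and 0 in Tconv. Sdhaf3, an assembly factor of complex II, had 7 UMIs in Tconv and 0 in Treg, in 7 cells with 1 each.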

How the results depend on the processing

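The small ratios of sums depended on the scaling. Without ribosomal protein genes in the total, the log2 ratio was -0.041 for all members, -0.026 for complex I, -0.10 for III, -0.061 for IV and -0.020 for V, and the median member -0.024. With TMM factors the values were -0.066 for all members, -0.051 for complex I, -0.014 for II, -0.13 for III, -0.086 for IV and -0.045 for V, the median member was -0.049, and Cox6a1 was -0.0047. With each cell weighted equally, all members gave 0.061 and complex IV 0.022. In cells thinned to 1000 UMIs, all members gave 0.058, complex II -0.087, complex IV 0.015 and the median member 0.015, and 6 members were at least 1.5-fold higher. Without Uqcrh, complex III gave 0.16. At the lower fold limit tried, 15 members were higher and 6 lower; at 2-fold, 1 was higher. The Fano factor was 1.52 in Treg and 1.21 in Tconv at 500 UMIs, 2.84 and 2.48 at 2000, and 2.07 and 1.75 with ribosomal protein genes removed before thinning. For the growth list the ratio was -0.054 in Treg and -0.018 in Tconv at 500 UMIs and -0.052 in Treg with another seed. For the effector or memory list it was -0.057 in Treg and -0.0044 in Tconv at 2000 UMIs and 0.016 in Treg with another seed. At 2000 UMIs the growth list gave no value, since fewer than 10 cells were left in a class. In the other 83 alternatives for sums, counts, Fano factors and classes, the value stayed within a set limit. That limit was the interval for sums and classes, 1.5 times for counts and 0.1 for Fano factors. For the median member it was 0.025 on the log2 scale. The cause of each change was not tested. No paired analysis was possible because each group is 1 library. Depth limits single members: at 20 UMIs an interval spans several-fold.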
